A study of Homo sapiens with 18 samples.

Results

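The 8 genes described here encode transcriptional regulators of the heart: the coactivator MYOCD, the zinc-finger factors GATA4 and GATA6, the T-box factors TBX5 and TBX20, and the MADS-box factors MEF2A, MEF2C and MEF2D. The rule names the genes and uses no measured value, though the set was drawn up with earlier results of these data known. Its members are the QKI eCLIP regions that overlap the span of each gene on its own strand by at least 1 nt. All 8 genes held at least 1 region, with 1371 of the 879442 regions listed over 9 libraries. QKI was immunoprecipitated after ultraviolet crosslinking from Hues6 cells, an established human embryonic stem cell line, at day 0, day 4 and day 8 of differentiation towards cardiomyocytes, with 3 IP libraries a day. Day 0 cells were pluripotent and grown in FTDA medium. Day 4 cells, called cardiac progenitors in the labels, had been started in CHIR and BMP4, kept in TS medium and then given C59. Day 8 cells, called cardiomyocytes, had the same agents and were crosslinked once they beat. All 3 groups share the line, the anti-QKI antibody and the crosslinking, and the labels give no genetic change in any group. The libraries of a day are not stated to come from separate cultures, so the p-values measure only the spread between these libraries, which may be technical.

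QKI belongs to the STAR family of RNA-binding proteins. It binds short ACUAA-containing elements, mostly in introns and 3′ untranslated regions, and is known as a regulator of alternative splicing in muscle. The genes for cardiac regulators are switched on in steps: GATA factors and TBX20 mark cells as they enter the cardiac lineage, TBX5 marks heart field cells and their chamber descendants, and MYOCD with SRF and the MEF2 factors drives the contractile gene programme. MEF2 transcripts are also known for alternatively spliced exons that differ between muscle and other cells.

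A listed cluster is any region in a library's own deposited list, where each line carries the authors' log2 fold (IP against input). A passing peak is a cluster with a fold of at least 4 (log2 fold of at least 2) and a p-value of 0.001 or less, both by the authors' values. The libraries listed between 102085 and 187962 clusters at day 0, between 63319 and 99552 at day 4 and between 52462 and 62897 at day 8. They held between 12695 and 15508 passing peaks at day 0, between 3030 and 7775 at day 4 and between 3726 and 10966 at day 8. Counts of a gene are therefore also given per 10000 clusters of the same library. Between 4.02% and 17.4% of the clusters of a library passed, and listed log2 folds reached down to 0.00065. A listed cluster therefore need not be a place of QKI binding. The lists hold regions of the IP set against input, not RNA levels. More QKI on each transcript, more transcript in each cell and more cells with the transcript thus cannot be told apart. For the same reason the labelled cell types were not checked against the RNA of their markers.

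The number of clusters in the 8 genes was higher at each later day while the lists became shorter. The 3 day 0 libraries had 18, 45 and 47 clusters in them, the day 4 libraries 97, 142 and 174, and the day 8 libraries 254, 294 and 300. Passing peaks numbered 2, 3 and 2 at day 0, then 2, 9 and 5 at day 4, and 28, 15 and 44 at day 8. For clusters the 3 days did not overlap, whereas for passing peaks only day 8 stood clear of the other days. The number of genes with a cluster went from 2 or 3 at day 0 to 6 or 7 at day 4, and reached 8 in every day 8 library. MYOCD, GATA4, GATA6 and TBX20 had clusters in every library from day 4 on, and of these 4 only the cluster share of MYOCD passed the test from day 4 to day 8. MEF2C and TBX5 had nearly all of theirs at day 8, and MEF2A and MEF2D had clusters at all 3 days.

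**Figure D1:**
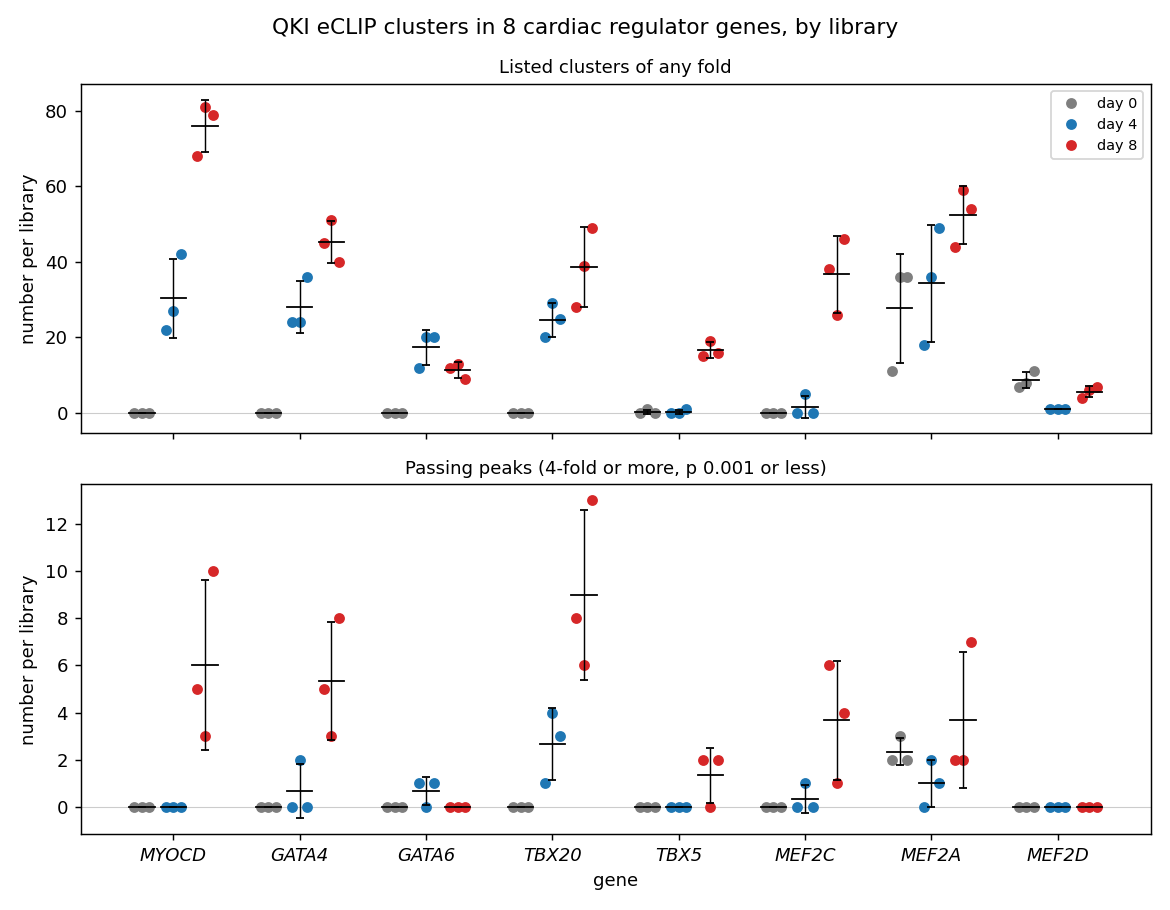
Number of QKI regions in each gene (x axis) by library; the upper y axis counts listed clusters of any fold and the lower one passing peaks, with a point for each of the 3 libraries a day, the mean as a line and 1 SD as bars. At day 0 MYOCD, GATA4, GATA6, TBX20 and MEF2C had 0 clusters in 3 of 3 libraries, and at day 8 MYOCD had 68, 81 and 79.

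MYOCD, the coactivator that binds SRF at smooth and cardiac muscle genes, held the most clusters of the 8 genes at day 8. It had 0 clusters in every day 0 library, 22, 27 and 42 at day 4, and 68, 81 and 79 at day 8. The 3 days did not overlap, and the 3 day 8 libraries lay close together. The median log2 folds of its day 8 clusters were 0.91, 1.23 and 1.20, under the minimum of 2 for passing. Per 10000 clusters of the library this was 3.85 ± 0.372 at day 4 and 12.9 ± 0.337 at day 8 (SD, n = 3 at each day). A count of 0 at day 0 allows up to 0.294, 0.167 and 0.160 clusters per 10000 in the 3 libraries. Against a floor of 3 clusters summed over day 0, the share was at least 61.2-fold higher at day 4 and at least 202-fold higher at day 8. From day 4 to day 8 it rose 3.30-fold (exact 95% interval 2.58 to 4.26, counting error only). The fit over all features gave a log2 difference of 1.73 ± 0.36 (SE) between day 4 and day 8 with a limma adjusted p of 0.00496. Its passing peaks were listed at day 8 only. None of the 91 clusters of day 4 passed, and 5, 3 and 10 did so in the 3 libraries of day 8. The highest log2 folds at day 4 were already 4.02, 4.04 and 3.76. There the −log10 p reached at most 2.48, under the minimum of 3. Of all clusters 6.36% passed at day 4 and 11.9% at day 8, so an order in time cannot be read from passing alone. Against a floor of 3 passing peaks summed over day 4, their share was at least 4.23-fold higher at day 8 (limma adjusted p = 0.000652). Testing needed at least 10 passing peaks over the 9 libraries, and all 18 of MYOCD were of day 8. This call was therefore partly fixed. The fitted size has no meaning of its own against a day at 0, and it ran from 1.42 with 2 added to each count, where the call was lost, to 3.94 with a value added in proportion to the library.

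GATA4, a zinc-finger factor needed for heart tube formation, also went from 0 clusters at day 0 to clusters in every library of the later days. It had 0 clusters in 3 of 3 day 0 libraries, 24, 24 and 36 at day 4, and 45, 51 and 40 at day 8. Day 4 and day 8 did not overlap in raw numbers or in share, which was 3.61 ± 0.181 and 7.76 ± 1.22 per 10000 clusters (SD, n = 3 each). Set against the day 0 floor, the share was at least 56.5-fold higher at day 4 and at least 121-fold higher at day 8. From day 4 to day 8 the share was 2.14-fold higher by counting (exact interval 1.61 to 2.84). The fitted log2 difference for that step was 1.08 ± 0.39 (SE) and missed the threshold, with a limma adjusted p of 0.0895. It passed without replicate 1 of day 0 (adjusted p = 0.0436), with 2 added to each count (adjusted p = 0.0370) and with a value added in proportion to the library (adjusted p = 0.0299). Passing peaks numbered 0, 2 and 0 at day 4 and 5, 3 and 8 at day 8. With 16 of 18 at day 8, they met the minimum for testing only through that day, which partly fixed any higher call there. They rose between these days by 2.19 ± 0.54 (log2, SE, limma adjusted p = 0.00953), a call lost without replicate 3 of day 4, where the difference was 1.90 (adjusted p = 0.0503), and at an 8-fold minimum (1.61, adjusted p = 0.0585).

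GATA6, a related zinc-finger factor of heart and endoderm, had clusters from day 4 and no step that passed the test after that. It had 0 clusters in every day 0 library, 12, 20 and 20 at day 4, and 12, 13 and 9 at day 8. These ranges overlapped, as did the shares of 2.25 ± 0.526 and 1.95 ± 0.455 per 10000 clusters (SD, n = 3 each). The share was at least 35.0-fold above the day 0 floor at day 4 and at least 30.2-fold above it at day 8. Between day 4 and day 8 the ratio was 0.862 (exact interval 0.543 to 1.35), and the fitted difference of -0.20 ± 0.51 (log2, SE) had a limma adjusted p of 0.853. Its passing peaks were 2 in all, 1 each in replicates 1 and 3 of day 4, and none of its 34 clusters of day 8 passed.

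TBX20, a T-box factor that acts in heart chamber growth and valve formation, held the most passing peaks of the 8 genes, 35 of their 110. It had 0 clusters in 3 of 3 day 0 libraries, 20, 29 and 25 at day 4, and 28, 39 and 49 at day 8. Days 4 and 8 overlapped in raw numbers, since replicate 1 of day 8 lay below replicate 2 of day 4. As shares they did not overlap, at 3.27 ± 0.821 and 6.50 ± 1.23 per 10000 clusters (SD, n = 3 each). Above the day 0 floor the share was at least 49.8-fold higher at day 4 and at least 103-fold higher at day 8. From day 4 to day 8 it was 2.07-fold higher by counting (exact interval 1.53 to 2.81), and the fitted log2 difference of 0.99 ± 0.42 (SE) missed the threshold (limma adjusted p = 0.148). Passing peaks were 0, 0 and 0 at day 0, 1, 4 and 3 at day 4, and 8, 6 and 13 at day 8. They were at least 7.43-fold higher at day 4 and at least 17.7-fold higher at day 8 than the day 0 floor, as a share of all passing peaks. Both steps from day 0 passed the limma test (adjusted p = 1.11e-06 at day 4 and 1.48e-08 at day 8), and did so with 2 added to each count or with the proportional value. TBX20 met the minimum of 10 passing peaks for testing only through day 8, with 27 of 35, which partly fixed the call at that day. The step from day 4 to day 8 had a difference of 1.18 ± 0.47 (SE) and an adjusted p of 0.115.

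A larger part of the TBX20 clusters passed than of the clusters of a whole library. At day 8 the passing part was 28.6%, 15.4% and 26.5% in TBX20 against 12.05%, 6.09% and 17.4% of all clusters in the same 3 libraries. At day 4 it was 5%, 13.8% and 12% against 4.79%, 11.1% and 4.02%. TBX20 was thus above its library in 6 of 6 libraries, by little in replicate 1 of day 4. MYOCD lay on the other side at day 8, with 7.35%, 3.70% and 12.7% of its clusters passing in the same 3 libraries. Over the 3 libraries of day 8 the passing part was 23.3% for TBX20 (Wilson 95% interval 16.5 to 31.7), 11.8% for GATA4 (7.37 to 18.3), 10.0% for MEF2C (5.68 to 17.0), 8.00% for TBX5 (3.15 to 18.8), 7.89% for MYOCD (5.05 to 12.1) and 7.01% for MEF2A (3.96 to 12.1). The part over all clusters of that day was 11.9%. No test was made of these parts, since clusters of a library are not replicates, and the intervals cover counting error only. TBX20 also holds the most passing peaks of the 8 genes, which its high passing part in part restates.

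TBX5, a T-box factor of limb and heart whose loss of function causes Holt-Oram syndrome, gained its clusters between day 4 and day 8. It had 0, 1 and 0 clusters at day 0, 0, 0 and 1 at day 4, and 15, 19 and 16 at day 8. The day 8 libraries were clear of all others and close to each other, at 2.84 ± 0.280 per 10000 clusters (SD, n = 3). The share was 65.9-fold higher at day 8 than at day 4, with an exact interval of 11.3 to 2656 that is wide because 1 cluster stands for day 4. The fitted log2 difference was 4.94 ± 0.63 (SE, limma adjusted p = 0.000105). TBX5 met the minimum of 10 clusters for testing only through day 8, with 50 of 52, which partly fixed the call. Its passing peaks were 2, 0 and 2 at day 8, too few for the test.

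MEF2C, the MEF2 factor needed for early heart and outflow development, followed the same late course. It had 0 clusters in every day 0 library, 0, 5 and 0 at day 4, and 38, 26 and 46 at day 8. All 5 clusters of day 4 came from replicate 2, and the day 8 libraries were clear of the rest. The share was 0.238 ± 0.412 per 10000 clusters at day 4 and 6.27 ± 1.75 at day 8 (SD, n = 3 each), which is 29.0-fold higher (exact interval 12.1 to 91.1). The fitted difference was 5.40 ± 0.86 (log2, SE, limma adjusted p = 0.000638). MEF2C likewise met the minimum for testing only through day 8, with 110 of 115 clusters, which partly fixed the call. Its clusters did not pass the test from day 0 to day 4 (2.14, adjusted p = 0.0913), except without replicate 3 of day 4 (2.91, adjusted p = 0.0458) or with 2 added to each count (1.59, adjusted p = 0.0164). Passing peaks were 0, 1 and 0 at day 4 and 6, 1 and 4 at day 8. With 11 of 12 at day 8, they too met the minimum for testing only through that day. Their difference between these days, 1.81 ± 0.56 (log2, SE), had a limma adjusted p of 0.0405, and leaving out any of 6 libraries ended this call: each of the 3 of day 0, replicate 1 or 3 of day 4 (difference 1.83 or 1.63), or replicate 1 of day 8 (1.36, adjusted p = 0.267).

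MEF2A, a MEF2 factor made in many tissues, was the only gene of the 8 with passing peaks at day 0. Its clusters numbered 11, 36 and 36 at day 0, 18, 36 and 49 at day 4, and 44, 59 and 54 at day 8. Raw numbers overlapped between neighbouring days, while shares did not: 1.66 ± 0.510, 4.30 ± 1.27 and 8.87 ± 0.671 per 10000 clusters (SD, n = 3 each). The share was 5.03-fold higher at day 8 than at day 0 (exact interval 3.83 to 6.65), far less than the bounds of the genes with 0 clusters at day 0. Between day 0 and day 8 the fitted difference was 2.44 ± 0.30 (log2, SE, limma adjusted p = 2.27e-05). This rise is one of share: without scaling to the length of the lists the difference was 1.08 and no longer passed (adjusted p = 0.0830). The step from day 0 to day 4 was 1.36 (adjusted p = 0.00448), or 0.38 without scaling (adjusted p = 0.583). The step from day 4 to day 8 was 1.08 (adjusted p = 0.0263). That call was lost without scaling (0.70), without replicate 1 or 3 of day 4 (0.81 and 1.20) and without replicate 1 or 2 of day 8 (1.12 and 1.02). Passing peaks numbered 2, 3 and 2 at day 0, 0, 2 and 1 at day 4, and 2, 2 and 7 at day 8, with overlap between all days. Their rise from day 0 to day 8 (1.47 ± 0.50, log2, SE, limma adjusted p = 0.0255) was lost without replicate 1 or 3 of day 0 or replicate 2 or 3 of day 8, at 1.30, 1.43, 1.35 and 1.34. It was also lost without scaling (0.37, adjusted p = 0.676) and at an 8-fold minimum (0.73, adjusted p = 0.327).

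MEF2D, the third MEF2 gene, has a span of 37.1 kb and had few clusters at every day, fewest at day 4. It had 7, 8 and 11 clusters at day 0, 1, 1 and 1 at day 4, and 4, 6 and 7 at day 8, and none of its 46 clusters passed. Their log2 folds were not low, with library medians of 2.91, 1.50 and 2.71 at day 0 and 1.70, 2.14 and 2.27 at day 8, but the highest −log10 p of any was 2.20, under the minimum of 3. Day 4 was clear of both other days, while day 0 and day 8 shared the value 7. The share was 0.572 ± 0.121, 0.134 ± 0.0298 and 0.952 ± 0.177 per 10000 clusters (SD, n = 3 each). It rose from day 4 to day 8 by 2.38 ± 0.51 (log2, SE, limma adjusted p = 0.00573), a call kept without any single library. Between day 0 and day 4 it fell by 1.60 on the log2 scale (adjusted p = 0.0358). This fall rests on few clusters and did not pass without any 1 of the 3 libraries of day 0 (-1.45, -1.77 and -1.58) or without replicate 3 of day 4 (-1.40), nor with 2 added to each count in place of 0.5 (-0.82, adjusted p = 0.110). Between day 0 and day 8 the difference was 0.78 (adjusted p = 0.264).

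Across the 8 genes, the counts called in the fit of listed clusters can be read against all 9123 features tested, which are the 8 spans and the loci of clusters outside them. From day 0 to day 4, 5 of 8 genes were called higher, against 8.98% of all features, and MEF2D was called lower, against 12.7%. From day 0 to day 8, 7 of 8 were higher, all but MEF2D, against 13.5%. From day 4 to day 8, MYOCD, TBX5, MEF2A, MEF2C and MEF2D were higher, which is 5 of 8 against 6.20%. TBX5 and MEF2C met the minimum of 10 clusters for testing only through day 8, which held 50 of 52 and 110 of 115. Their higher calls at day 8 were therefore partly fixed by that minimum. Over the 3 days the F test called all 8, against 36.2%. The exact permutation test over the same 3 days called 0 of the 9123 features after adjustment, with 3332 at an unadjusted exact p under 0.05. Its smallest possible p is 0.00357, which limits what can pass adjustment over so many features. MYOCD, GATA4, TBX20, MEF2A and MEF2D had this smallest p. Among the 7192 features with at least 20 clusters the same test called 542. For the 8 genes its exact p ran from 0.00357 to 0.0357 and its adjusted p from 0.0569 to 0.108. The median log2 difference of all features was -0.03, -0.12 and -0.06 in the 3 comparisons. Without scaling to the length of the lists it was -1.02, -1.48 and -0.44, and the differences given here are of shares. From day 0 to day 4, 819 features were called higher and 1157 lower as shares, 278 and 2594 without scaling, 1553 and 866 with 2 added to each count, and 589 and 1142 with a value in proportion to the library. For day 0 to day 8 these pairs were 1233 and 1626, 424 and 4419, 2205 and 1036, and 973 and 1844. For day 4 to day 8 they were 566 and 612, 316 and 650, 668 and 489, and 533 and 673. Fitted values against a day of 0 clusters depend on the 0.5 added to each count and are no measure of size, so the bounds above stand in for them.

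**Figure D2:**
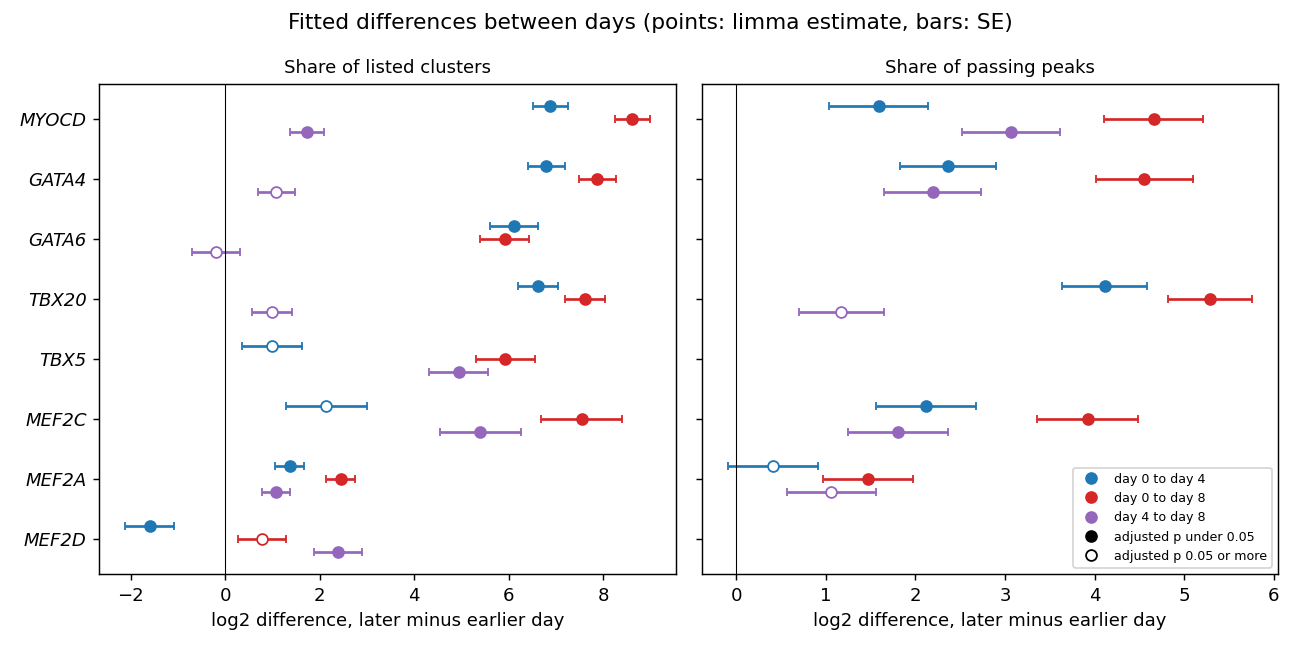
Fitted log2 difference of the share (x axes, later minus earlier day) for each gene (y axis), from listed clusters on the left and passing peaks on the right; points are limma estimates over 9 libraries, bars are SE, and filled points had an adjusted p under 0.05. Most points lie right of 0; on the left MEF2D fell by 1.60 from day 0 to day 4, and on the right the filled MYOCD point for day 0 to day 4 compares days with 0 passing peaks each. Points against a day at 0 depend on the 0.5 added to each count.

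Among passing peaks 5 of the 8 genes could be tested, because GATA6, TBX5 and MEF2D had 2, 4 and 0 over the 9 libraries and the minimum was 10. From day 0 to day 8 all 5 were called higher, against 15.2% of 2069 features. From day 4 to day 8 the 3 genes MYOCD, GATA4 and MEF2C were called, against 5.94%, and over the 3 days all but MEF2A were, against 38.4%. MYOCD, GATA4, MEF2C and TBX20 met the minimum of 10 only through day 8. That day held 18 of 18, 16 of 18, 11 of 12 and 27 of 35 of their passing peaks. Their higher calls at day 8 were therefore partly fixed by the minimum and are no independent support. With 2 in place of 0.5 added to each count, none of the 3 calls from day 4 to day 8 was kept, at 1.42 for MYOCD, 0.999 for GATA4 and 0.71 for MEF2C (adjusted p = 0.0569, 0.219 and 0.45). From day 0 to day 4 the fit called TBX20, GATA4, MEF2C and MYOCD, against 14.3%, but this count holds a fault of the scale. MYOCD had 0 passing peaks in all 6 libraries of these days, and its difference of 1.59 (adjusted p = 0.0408) came from the same 0.5 being added to lists of unequal length. With an added value in proportion to each library, chosen after seeing the data, MYOCD had a difference of 0.00, GATA4 of 0.81 (adjusted p = 0.446) and MEF2C of 0.56 (adjusted p = 0.545), and TBX20 alone was called (3.27, adjusted p = 8.31e-05). That setting also ended the MEF2A call from day 0 to day 8 (1.25, adjusted p = 0.210) and brought TBX20 past the threshold from day 4 to day 8 (1.31, adjusted p = 0.0486). Among all features, those called higher and lower from day 0 to day 4 numbered 295 and 170 with the fixed value, 95 and 326 with the proportional one, 875 and 22 with 2 added and 42 and 778 without scaling. In the same order they numbered 315 and 407, 180 and 407, 459 and 78, and 116 and 671 from day 0 to day 8. For day 4 to day 8 they were 123 and 99, 136 and 54, 34 and 23, and 128 and 20. Permuting the 9 libraries over the 280 ways to form 3 days, as an exact test, gave TBX20 its smallest possible p of 0.00357 (adjusted p = 0.0935). It called 0 features after adjustment, with 718 at an unadjusted exact p under 0.05. With the 3030 strongest peaks of each library it called 48 of 627 features.

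Within the genes, passing peaks that touched or overlapped were merged into 60 positions on hg19. Of these, 36 passed in 1 library and 24 in 2 or more. At 48 positions passing peaks occurred at day 8 only, and 26 of those already had a listed cluster at day 4. The share of all 29356 positions of the series that passed at day 8 only was not counted. The 48 can therefore not be read as particular to these genes. The only positions with any cluster at day 0 were the 8 in MEF2A. In 5 positions a peak passed in 3 of 3 libraries at day 8 and in 0 of 3 at day 0. They lie in TBX20 (3), MYOCD and GATA4, and 493 of 29356 positions in the whole series (1.68%) had this pattern. At an 8-fold minimum 4 positions passed in all 3 day 8 libraries.

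The TBX20 position that passed in the most libraries lies at chr7:35270225-35270397 on the minus strand, 23.3 kb from the gene's start. Its highest log2 folds were 3.58, 6.45 and 3.68 in the 3 libraries of day 4 and 4.31, 4.25 and 5.10 in those of day 8, and no day 0 library listed a cluster there. It passed in 6 of 6 libraries of these days, and the days overlapped. A second TBX20 position, chr7:35262638-35262738, 31.0 kb from the start, had folds of 3.29, 4.53 and 3.69 at day 4 and 4.91, 3.75 and 4.94 at day 8. It passed in 5 libraries, the exception being replicate 1 of day 4. Beside it, chr7:35262583-35262614 passed only at day 8, at 3.05, 3.72 and 3.10. The 2 sets of positions, about the 23 and 31 kb marks, held the day 4 passing peaks of TBX20 except 1.

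In the authors' deposited merged lists, which keep peaks of at least 4-fold that were reproducible over the 3 libraries of a day, only TBX20 and MYOCD had entries. The authors' deposited table of day 4, with 947 peaks, holds chr7:35270237-35270339 in TBX20 at a log2 fold of 4.61. The authors' deposited table of day 8, with 1576 peaks, holds chr7:35270274-35270339 at 4.80, chr7:35270225-35270273 at 3.42 and chr7:35262652-35262735 at 4.61 in TBX20. It also holds chr17:12668968-12669082 in MYOCD at 3.68. The first 2 of the TBX20 entries of day 8 adjoin each other within a single position. By fold, the TBX20 entries of day 8 ranked 880, 1418 and 964 of 1576 and the MYOCD entry 1353. The TBX20 entry of day 4 ranked 619 of 947. The authors' deposited table of day 0, with 7778 peaks, has none in the 8 genes, not even at the MEF2A position that passed in 3 of 3 libraries of that day.

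The MYOCD position lies at chr17:12668960-12669091 on the plus strand, 99.8 kb from the start and 1.56 kb from the end of the gene. It had a listed cluster in 3 of 3 libraries at day 4, with log2 folds of 1.70, 3.72 and 2.66, and none of them passed. At day 8 it passed in 3 of 3 libraries, with folds of 3.52, 3.72 and 3.67. The folds of the days overlapped, and 2 of the 3 at day 4 were above the minimum, where the p-value was not low enough. Most other MYOCD regions were spread out and varied between libraries: 11 of its 14 positions passed in a single library. Of the 228 clusters of day 8, 70, 48, 37, 41 and 32 fell in 5 parts of equal length, from the start of the gene to its end.

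**Figure D3:**
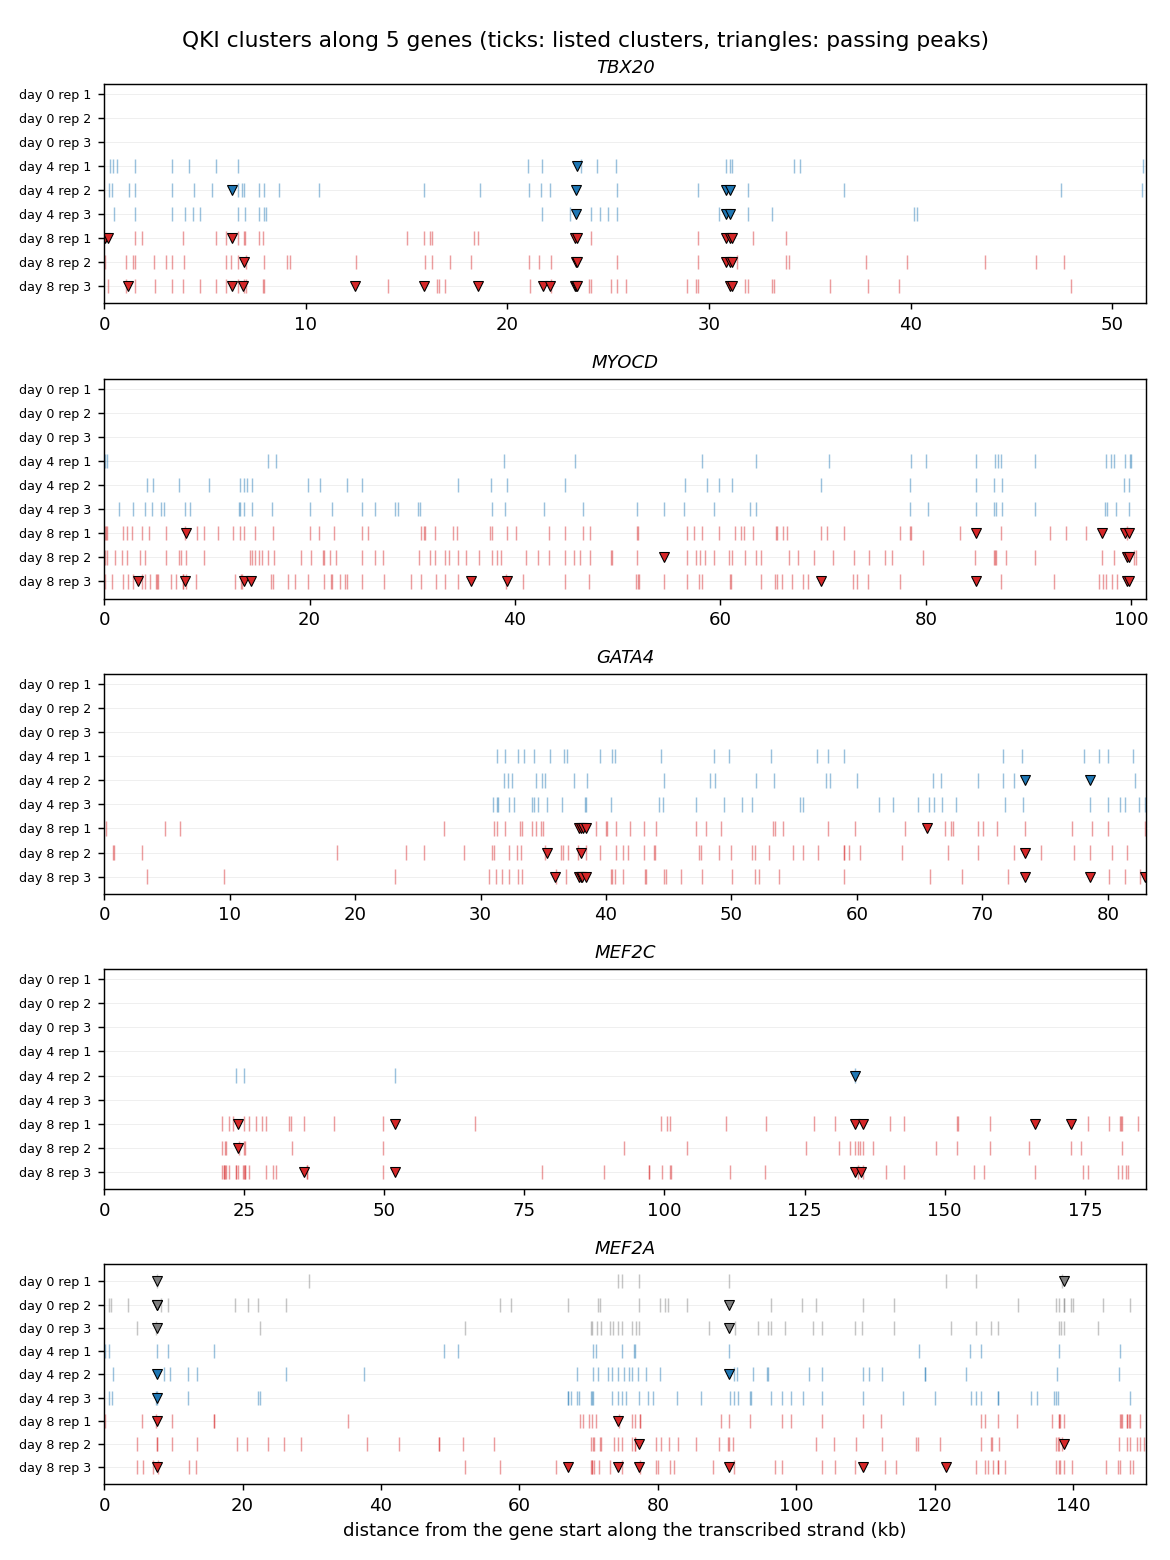
Place of each QKI cluster along 5 genes, as distance in kb from the gene start on the transcribed strand (x axis), with a row for each of the 9 libraries; ticks are listed clusters and triangles are passing peaks. In TBX20 triangles stack near 23 and 31 kb at days 4 and 8, in MYOCD they stack near 100 kb at day 8, and in MEF2A a stack near 8 kb is present from day 0.

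GATA4 clusters lay mostly in the middle and later parts of its span. Of 5 parts of equal length, the first held none of the 84 clusters of day 4 and 8 of the 136 of day 8. Where transcripts begin within the span was not known, as no annotation was used. Its position chr8:11572451-11572517 on the plus strand, 38.0 kb from the start, passed in 3 of 3 libraries of day 8 with log2 folds of 2.56, 3.69 and 2.84. No library of day 0 or day 4 listed a cluster there. A position nearer the end, chr8:11607784-11607859, 73.3 kb from the start, passed in 3 libraries, of which 1 was of day 4 (3.72) and 2 of day 8 (4.36 and 3.49). The remaining day 8 library had a cluster of 2.23 there.

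The MEF2A position that passed in the most libraries was chr15:100113678-100113852 on the plus strand, 7.55 kb from the start. Every library listed a cluster there, with log2 folds of 4.13, 4.02 and 4.58 at day 0, 3.29, 4.18 and 3.18 at day 4, and 3.33, 3.88 and 5.14 at day 8. It passed in 7 of 9 libraries, and the folds of the 3 days overlapped. At chr15:100196420-100196522, 90.3 kb from the start, every library also had a cluster, and 4 passed, 2 of day 0 and 1 of each later day. These 2 were the only merged cluster positions of the 8 genes found in all 9 libraries.

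In the remaining genes no position passed in more than 2 libraries. In MEF2C 3 positions passed in 2 libraries, and the one with the highest median fold was chr5:88065814-88065890 on the minus strand. It had log2 folds of 3.72, 2.55 and 5.86 at day 8, of which the first and last passed, and a cluster of 3.31 in replicate 2 of day 4. The others were chr5:88147937-88148005 and chr5:88175925-88176017. In TBX5 the position chr12:114807330-114807377 on the minus strand had folds of 5.08, 4.14 and 4.69 at day 8 and passed in replicates 1 and 3. It had no cluster at day 0 or day 4, as was the case at its neighbour chr12:114807406-114807498. In GATA6 both positions passed in 1 library. On the plus strand, chr18:19764466-19764521 passed in replicate 1 of day 4 at 3.87, and no day 8 library had a cluster there. The other, chr18:19756948-19757018, passed in replicate 3 of day 4 at 2.63 and had a cluster of 0.82 in replicate 2 of day 8. MEF2D had no position. The last 5 kb make up 13.5% of its span. They held 6 of 26 clusters at day 0, 0 of 3 at day 4 and 9 of 17 at day 8. No difference in this was tested.

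**Figure D4:**
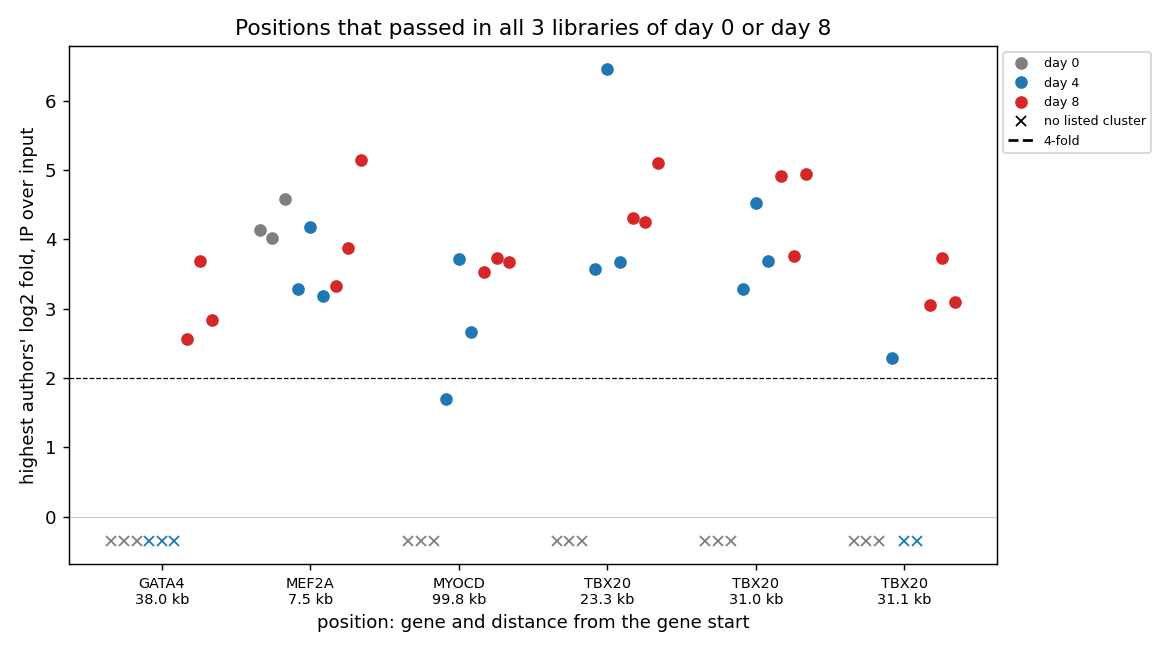
Highest authors' log2 fold of IP over input (y axis) in each of 9 libraries at the 6 positions that passed in all 3 libraries of day 0 or day 8 (x axis, gene and distance from its start); crosses below 0 mark libraries with no listed cluster, and the dashed line is 4-fold. At day 0 the MEF2A position had folds of 4.13, 4.02 and 4.58, and the 5 positions in GATA4, MYOCD and TBX20 had no cluster.

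Most places with a cluster were listed at day 4 or at day 8 but not at both. When clusters of any fold were merged over libraries, TBX20 had 53 positions at day 4 and 69 at day 8, with 26 in common, which is 49.1% of the first and 37.7% of the second. MYOCD had 75 and 176 with 37 in common, 49.3% and 21.0%. GATA4 had 75 and 114 with 29 in common, 38.7% and 25.4%. GATA6 had 41 and 31 with 10 in common, 24.4% and 32.3%. No difference between the genes in this was tested. Places seen in all 3 libraries of day 8 were also the minority: 13 of 69 in TBX20, 10 of 176 in MYOCD, 5 of 114 in GATA4 and 0 of 31 in GATA6. Neither the overlap of the days nor these parts were counted over all cluster positions of the series. They can therefore not be read as particular to these genes.

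Per length of gene, the levels at day 8 fell into 3 tiers. MYOCD had 7.49 ± 0.690 clusters per 10 kb, TBX20 7.48 ± 2.03 and GATA4 5.46 ± 0.663 (SD, n = 3 each), and TBX20 overlapped both of the others. MEF2A followed at 3.48 ± 0.507, GATA6 at 3.42 ± 0.629 and TBX5 at 3.06 ± 0.382, and these 3 overlapped each other. MEF2C at 1.97 ± 0.541 and MEF2D at 1.53 ± 0.411 came last and overlapped. The lowest GATA4 library, 4.82, lay above the highest MEF2A library, 3.92. At day 4 the order was led by GATA6 (5.24 ± 1.40), TBX20 (4.77 ± 0.873), GATA4 (3.37 ± 0.834) and MYOCD (2.99 ± 1.03), whose ranges all overlapped. At day 0 MEF2D led with 2.33 ± 0.561, followed by MEF2A at 1.84 ± 0.959, and their ranges overlapped. TBX5 had 0.0611 ± 0.106 at that day, and the remaining genes had no cluster.

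The 3 features whose passing peaks ran most like those of TBX20 over the 9 libraries, of 2069 tested, were loci outside the 8 genes. A locus at chr2:179461006-179669768 on the minus strand had a Pearson correlation of 0.998 with TBX20, with 0 passing peaks at day 0, 9, 42 and 22 at day 4, and 91, 79 and 139 at day 8. The others were chr6:73544450-73592777 on the plus strand (0.994) and chr5:127636578-127760190 on the minus strand (0.992). These correlations are of log2 shares, are a description, and run over libraries that share a day and a list length with both features.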

How the data were processed

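Values came from 12 deposited peak lists of QKI eCLIP in Hues6 cells, 1 per IP library and 1 merged list a day; the input libraries were not analysed here. Per the file headers, peaks were input-normalized by the authors on hg19, and the merged lists were kept at 4-fold after a 3-way IDR comparison of libraries. The headers do not name the columns: the deposited values were read as the authors' log2 fold of IP over input and −log10 p-value (highest value 400), because the lowest fold value in the merged lists lies just above log2 of 4. Per the submitters' processing notes, cutadapt, STAR and SAMtools were used; the peak caller is not given in the sources used here. The deposited score column, a display value of the authors' narrowPeak format per the file headers, was not used. Read depth is unknown.

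Gene spans were those of the rule that chose the set. Clusters outside them were joined within 20 kb on 1 strand into loci. Features with at least 10 peaks were tested with limma 3.58.1 (lmFit, eBayes with a variance trend, R 4.3.3) on log2 of (peaks + 0.5) over (library total + 1) × 10000, over 9 libraries with Benjamini-Hochberg adjustment at 0.05. Passing peaks were the planned main measure, and listed clusters an alternative. Intervals on shares are Wilson and on ratios exact (Clopper-Pearson), at 95%, and cover counting error only; a day at 0 was given 3 counts summed over its libraries. Scripts were tested on simulated data. Replicate numbers were not used to pair libraries in the main fit. The correlation of deviations from the day means exceeded 0.1 in 3 of 9 same-numbered pairs and 3 of 18 other pairs. So few pairs cannot exclude a pairing. No hg19 sequence or annotation was used, so motifs, exons and introns are not reported. The text names all 8 genes, per gene the position passing in the most libraries, positions in merged lists, positions passing in 3 of 3 libraries of 1 day and 0 of another, and the 3 features most like the gene with the most passing peaks. The genes and lists were chosen with earlier results of these data known.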

Additional observations from a re-analysis of the deposited data

How the results depend on the processing

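For listed clusters, the higher calls of MYOCD, GATA4, GATA6 and TBX20 at days 4 and 8 against day 0, and of MEF2C and TBX5 at day 8 against both earlier days, were kept under all 16 alternatives run. MEF2C and TBX5 met the minimum for testing only through day 8, and every alternative kept such a minimum. Their calls were thus partly fixed, and being kept is no independent support for them. Without scaling, MEF2D from day 0 to day 8 turned to -0.58. GATA6 from day 4 to day 8 ran from -0.32 to 0.0055 when single libraries were left out, the last without replicate 3 of day 8. For passing peaks, MEF2A from day 0 to day 4 turned from 0.41 to -1.18 without scaling and to -0.35 with a proportional added value. The number of genes called from day 0 to day 4, 4 in all, became 1 with the equal number of strongest peaks (3030 a library), 1 without scaling, 2 after centring on the median feature, 1 with at least 20 peaks and 1 with the proportional value. From day 0 to day 8, 5 became 1 with equal numbers and 2 with at least 20 peaks. From day 4 to day 8, 3 became 5 among all listed clusters, 0 with an added value of 2, 1 with equal numbers and 0 with at least 20 peaks, and ran from 1 to 3 when single libraries were left out. Over the 3 days, 4 became 8 among listed clusters, 1 with equal numbers, 1 with at least 20 peaks and 0 in the exact permutation test. With equal numbers only TBX20 had enough peaks to be tested, and with at least 20 only TBX20 and MEF2A had. MYOCD from day 0 to day 4 was also lost after centring, by covered nucleotides and by merged footprints. With the replicate block 3, 5 and 2 genes were called in the 3 pairs of days, MYOCD from day 0 to day 4 (adjusted p = 0.0564) and MEF2C from day 4 to day 8 (adjusted p = 0.0576) being lost. Counts of a few peaks per gene and library limit what can be told of GATA6, TBX5 and MEF2D, and read depth behind the lists is unknown.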
